A study of Mus musculus with 18 samples.

Results

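The 8 genes described here are Gaa, Ganab, Ganc, Mogs, Prkcsh, Gba2 and Ugcg, of the glucosidases and glucosylceramide synthase, enzyme classes that mulberry iminosugars act on, and Gal3st1, a sulfatide gene set beside them that belongs to neither class. They were chosen by gene name from a table of 54532 genes, all 8 were found, and all 8 passed the filter on low values (a mean of at least 1 FPKM over the 18 mice). FPKM counts fragments per length of gene and per size of the library, so levels can be compared between genes per unit of length. RNA of the whole liver was sequenced from 18 male C57BL/6 mice (C57BL/6J in the study's methods), 6 weeks old at arrival, with 6 mice in each group. NC mice (titled CHOW) ate normal chow, and the other groups ate a high-fat diet for 14 weeks and then stayed on it. HFD mice then received saline, and SZ-A mice (titled SZ) received SZ-A, an alkaloid extract of mulberry twig (Ramulus Mori). The deposited description gives 8 weeks of treatment and the paper a shorter course, and the dose and route of SZ-A in the sequenced mice are not given in the sources used here. The library NC6 has a label of high-fat diet that goes against its title. It was kept in NC. Values without it are given for Gaa and Mogs only, and counts of calls are given as ranges over each mouse left out.

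Glucosidases cut glucose from sugar chains. Gaa encodes acid alpha-glucosidase, which breaks down glycogen in the lysosome, and Ganc encodes neutral alpha-glucosidase C. Mogs encodes glucosidase I, and Ganab and Prkcsh encode the catalytic and the regulatory subunit of glucosidase II, which remove glucose from the sugar chain of new glycoproteins in the endoplasmic reticulum (ER) so that the proteins can enter and leave the lectin chaperones. Ugcg encodes glucosylceramide synthase, the first step towards most glycosphingolipids, Gba2 encodes a non-lysosomal glucosylceramidase that removes that glucose again, and Gal3st1 encodes the sulfotransferase that makes sulfatide. Iminosugars such as 1-deoxynojirimycin, a known alkaloid of mulberry, resemble glucose and bind the active site of many glucosidases. An effect on the enzyme protein is not measured by RNA.

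Fragments on genes, worked back from the deposited values, totalled 17163191 to 20493907 per mouse. The marker genes of hepatocytes summed to 40587 to 80002 FPKM per mouse with all 12 above the filter, while none of 10 T and NK cell markers reached it. In HFD against NC mice, 7 of 12 Kupffer cell and macrophage markers were called higher (summed FPKM of 234 to 415 in NC mice, of 394 to 630 in HFD mice and of 361 to 510 in SZ-A mice), and 8 of 12 stellate cell markers were called higher. Hepatocyte markers had a median log2 fold change of -0.21, with 3 of 12 called lower and 1 higher. Neutrophil and adipocyte markers had 2 of 3 tested genes called higher each, while the third adipocyte marker was at -0.76 (not called). All 3 tested B cell markers were negative (none called). Of all genes tested, 10.7% were called higher and 9.49% lower in this comparison. In SZ-A against HFD mice 10 of 12 macrophage markers (median -0.22, Cd68 called lower) and 11 of 12 stellate cell markers (median -0.31, none called) were negative, as were all 3 tested markers of neutrophils and of adipocytes (none called), while 11 of 12 hepatocyte markers were positive (median 0.13, none called). In SZ-A against NC mice all 12 macrophage markers were positive (median 0.40, 2 called higher), and 2 of 12 stellate cell and 2 of 3 neutrophil markers were called higher. Called lower were 1 of 12 hepatocyte, 1 of 3 adipocyte and 1 of 3 cholangiocyte markers. The only tested marker of pancreas acinar cells was called higher. Over all genes 5.31% were called higher and 4.3% lower. The part of these shifts in the results below was not tested, and in whole liver fewer cells of a type and less RNA per cell cannot be told apart.

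The 8 genes lie on 6 mouse chromosomes (GRCm38, coordinates as deposited, whole gene). Gaa (ENSMUSG00000025579) spans chr11:119267887-119285454 on the plus strand and Gal3st1 (ENSMUSG00000049721) spans chr11:3983636-3999326 on the plus strand. Ganab (ENSMUSG00000071650) spans chr19:8898090-8916663 (plus), Prkcsh (ENSMUSG00000003402) chr9:22002806-22014222 (plus) and Mogs (ENSMUSG00000030036) chr6:83115496-83118898 (plus). Ganc (ENSMUSG00000062646) spans chr2:120403896-120461700 (plus), Gba2 (ENSMUSG00000028467) chr4:43566928-43578873 (minus) and Ugcg (ENSMUSG00000028381) chr4:59189257-59222833 (plus). Ganc shares 5682 bases with Capn3 on its own strand and 218 bases with Tmem87a on the other, and Gba2 shares 133 bases with Creb3 and 159 bases with Rgp1 on the other strand. The library kit is not stated to keep the strand, so reads in these shared bases could come from either gene. Capn3 itself was at 0.0501 to 0.295 FPKM, below Ganc in every mouse, and Tmem87a was at 0.793 to 1.25 FPKM, against a lowest Ganc value of 1.21. Creb3, at 12.1 to 24.2 FPKM, and Rgp1, at 5.80 to 8.36 FPKM, were both above Gba2 in every mouse.

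Promoter letters are shown for 4 genes: Gaa, the member called below; Prkcsh, the other member that holds the same motif; and Arsa and Hexa, lysosomal genes of glycosphingolipid breakdown that were called in the opposite direction to Gaa. The sequences come from RefSeq windows of 300 bases (250 before the start and 50 after), of which only the bases before the first annotated base of the gene are printed, 5′ to 3′ along the gene's strand in GRCm38.p6. Capitals mark CACGTG, the E-box that TFEB, TFE3 and USF proteins are known to read, which is its own reverse complement, so that both strands are covered by one search. The stretches are chr11:119267713-119267886 plus for Gaa, chr9:22002738-22002805 plus for Prkcsh, chr15:89477426-89477674 minus for Arsa and chr9:59539290-59539539 plus for Hexa.
Gaa: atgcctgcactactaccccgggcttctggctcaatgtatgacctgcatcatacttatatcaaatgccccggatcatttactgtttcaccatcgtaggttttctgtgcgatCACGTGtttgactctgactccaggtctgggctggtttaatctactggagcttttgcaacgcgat
Prkcsh: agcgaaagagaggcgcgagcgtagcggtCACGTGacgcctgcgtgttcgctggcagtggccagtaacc
Arsa: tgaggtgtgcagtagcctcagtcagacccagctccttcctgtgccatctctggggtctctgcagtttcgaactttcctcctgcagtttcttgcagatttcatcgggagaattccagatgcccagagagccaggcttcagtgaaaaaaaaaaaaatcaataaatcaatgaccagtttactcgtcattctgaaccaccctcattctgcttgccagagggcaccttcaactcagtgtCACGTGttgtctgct
Hexa: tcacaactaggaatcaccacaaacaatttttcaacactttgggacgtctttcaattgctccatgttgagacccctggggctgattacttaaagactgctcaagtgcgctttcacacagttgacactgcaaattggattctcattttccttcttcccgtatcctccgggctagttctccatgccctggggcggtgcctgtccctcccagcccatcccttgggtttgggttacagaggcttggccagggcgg
The E-box began 64 bases before the first annotated base of Gaa, 40 before Prkcsh and 15 before Arsa, and Hexa had none in its window. All 8 members had a window (10 windows, since Gal3st1 has 3), and 2 members, Gaa and Prkcsh, held CACGTG, against 7.15% of all 32851 windows. The genes were chosen for this search after their values were seen, and a match is a run of letters, not a measured site.

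Levels per length set the ER glucosidases and Gaa apart from the glycolipid genes and Ganc. In NC mice the order of mean FPKM was Ganab (45.9), Gaa (32.7), Prkcsh (23.7), Mogs (18.3), Ugcg (4.73), Gba2 (2.06), Gal3st1 (1.89) and Ganc (1.76), and neighbours in this order had separate ranges down to Ugcg and Gba2, while Gba2, Gal3st1 and Ganc overlapped. In HFD mice Gaa (22.9) and Prkcsh (20.4) overlapped. In the same mice Ugcg, Gal3st1, Ganc and Gba2 formed a low group in which each neighbour overlapped the next, with Gal3st1 at 3.78 just below Ugcg at 4.22. In SZ-A mice Gaa overlapped Prkcsh, Prkcsh overlapped Mogs, and Gal3st1 was the lowest of the 8 at 1.38. The catalytic subunit of glucosidase II stood at about the same multiple of its regulatory subunit throughout, with a Ganab to Prkcsh ratio of 1.96 ± 0.248 (SD, n = 6) in NC mice, 2.03 ± 0.204 (SD, n = 6) in HFD mice and 1.98 ± 0.255 (SD, n = 6) in SZ-A mice.

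**Figure D1:**
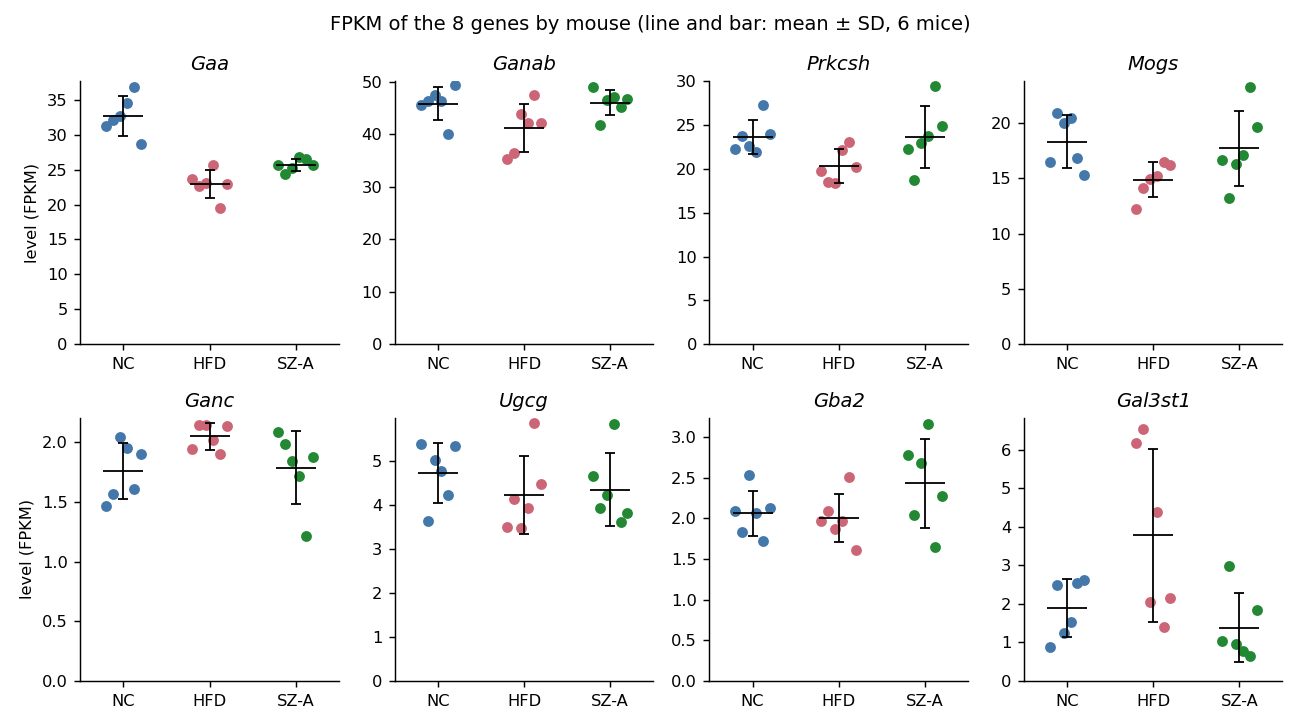
Level in FPKM (y axis, from 0) of each of the 8 genes in each mouse (points) of the NC, HFD and SZ-A groups, with the mean as a line and the SD as a bar (6 mice per group). For Gaa every NC mouse (28.6 FPKM or more) lies above every HFD and SZ-A mouse (26.8 or less), while Gal3st1 spreads from 1.40 to 6.53 FPKM among HFD mice.

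HFD against NC mice compared the high-fat diet with normal chow. HFD mice also received saline, while no treatment is listed for NC mice in the sample labels, so diet and saline cannot be told apart here. A single member was called: Gaa fell by 0.51 on the log2 scale (SE 0.081, a fall of 29.7%), and the other 7 did not pass the test. Genes were called by limma on log2(FPKM + 0.1) at a Benjamini-Hochberg adjusted p under 0.05 over the 10216 genes tested and a fold change over 1.2, a scale that understates the change of low genes. The count of 1 of 8 members called, lower, stood beside 20.2% of all genes tested (10.7% higher and 9.49% lower), a share near the background. An unadjusted p under 0.05 was reached by 4 of 8 members and by 34.8% of all genes. The median log2 fold change of the members was -0.16 and that of all genes -0.03.

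Gaa, the lysosomal glucosidase of glycogen, ran from 28.6 to 36.8 FPKM in NC mice (median 32.4) and from 19.5 to 25.6 in HFD mice (median 23.0). The groups did not overlap, as for 10.5% of all genes, and each of the 6 HFD mice was below the lowest NC mouse, which was NC6. The limma 95% interval of the log2 fold change was -0.68 to -0.33 (adjusted p = 0.000971). Without NC6 it was -0.55 (adjusted p = 0.000961), and Gaa was called in all 24 alternative settings, with adjusted p from 8.69e-05 to 0.0277. The value rests on 1731 to 2496 fragments per HFD mouse and 2583 to 3348 per NC mouse, so the fragment counts did not overlap either.

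The ER glucosidases had lower mean FPKM in HFD than in NC mice, except that Ganab turned to a log2 fold change of 0.03 when all mice were rescaled to the same sum, and none passed the test. Mogs, glucosidase I, ran from 15.3 to 20.8 FPKM in NC mice (median 18.4) and from 12.2 to 16.5 in HFD mice (median 15.1). In 4 HFD mice the level was below all NC mice, yet the ranges overlapped, and the log2 fold change was -0.30 (95% interval -0.51 to -0.08, adjusted p = 0.0528). Mogs was called in 5 of the 24 alternative settings, with a lowest adjusted p of 0.0097 over the 24. The 5 were a mean of at least 5 FPKM, sample weights, and leaving out NC5, NC6 or HFD5. Without NC6 the log2 fold change of Mogs was -0.34 (adjusted p = 0.0292). Rescaling moved it the other way, to -0.10 (adjusted p = 0.488) with all mice at the same sum of FPKM and to -0.14 (adjusted p = 0.326) with fragment totals. Prkcsh ran from 21.9 to 27.3 FPKM in NC (median 23.2) and from 18.4 to 23.1 in HFD mice (median 20.03), with a log2 fold change of -0.22 (-0.39 to -0.04, adjusted p = 0.0731) that came to -0.024 and -0.060 under those scalings. Ganab ran from 40.0 to 49.5 FPKM in NC (median 46.4) and from 35.3 to 47.6 in HFD mice (median 42.1), with a log2 fold change of -0.16 (-0.34 to 0.03, adjusted p = 0.206). For both subunits the HFD range reached into the NC range.

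Gal3st1, the sulfatide-making enzyme, had its highest mean and largest SD in HFD mice. It ran from 0.891 to 2.62 FPKM in NC mice (median 2.01) and from 1.40 to 6.53 in HFD mice (median 3.26). The HFD group held 3 high mice, HFD2 at 6.53, HFD1 at 6.17 and HFD4 at 4.39, which were above every NC mouse, and 3 mice within the NC range (HFD3 at 2.04, HFD5 at 1.40 and HFD6 at 2.14). The coefficient of variation was 59.2% in HFD mice, against 40.1% in NC mice and 64.7% in SZ-A mice, whereas that of Gaa was 8.63% in both NC and HFD mice. The log2 fold change of 0.84 was not called (95% interval -0.0022 to 1.68, adjusted p = 0.145). With sample weights it was 1.10 and was called (adjusted p = 0.0364). Only 23 to 306 fragments per mouse over the 18 mice stand behind this gene.

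The enzymes that add and remove the glucose of glucosylceramide showed no difference beyond the spread. Ugcg ran from 3.64 to 5.38 FPKM in NC (median 4.89) and from 3.48 to 5.85 in HFD mice (median 4.03), with a log2 fold change of -0.17 (-0.46 to 0.12, adjusted p = 0.400). Gba2 ran from 1.72 to 2.53 FPKM in NC (median 2.08) and from 1.61 to 2.51 in HFD mice (median 1.96), with a log2 fold change of -0.04 (-0.29 to 0.21, adjusted p = 0.830). The HFD range spanned nearly the whole NC range for both genes. Ganc, the neutral glucosidase, ran from 1.47 to 2.05 FPKM in NC (median 1.76) and from 1.91 to 2.15 in HFD mice (median 2.08). Every HFD mouse was above the NC mean and 3 were above all NC mice, and its log2 fold change of 0.22 (0.0033 to 0.43, adjusted p = 0.138) did not pass.

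**Figure D2:**
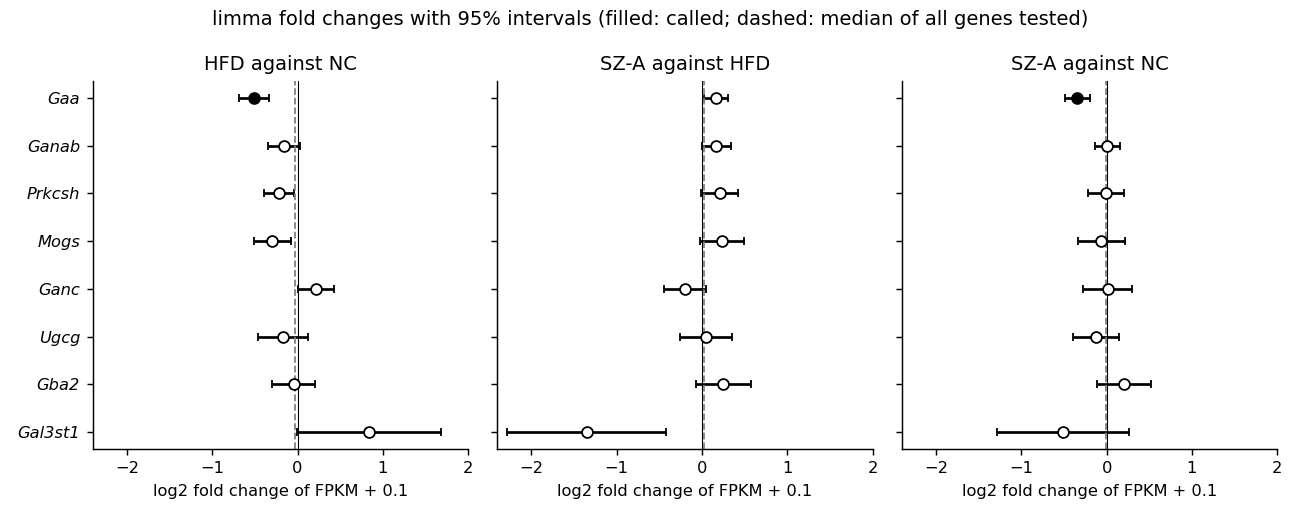
Log2 fold change of FPKM + 0.1 (x axis) with its limma 95% interval (bars) for the 8 genes (y axis) in the 3 comparisons; filled points are called and the dashed line is the median of all genes tested. Gaa is the filled point at -0.51 in HFD against NC and at -0.34 in SZ-A against NC mice, and no point is filled in SZ-A against HFD, where Gal3st1 has the widest interval, from -2.28 to -0.42.

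SZ-A against HFD mice asked what the treatment changed on the diet. None of the 8 members was called, in a comparison in which 15 of 10216 genes were (0.147%; 0.0783% higher and 0.0685% lower), and none was called in any of the 24 alternative settings, voom on whole fragments among them. With DESeq2 at these thresholds the paper reported many more genes for this comparison. That test was not repeated, so the lack of a call holds for the tests used here only. An unadjusted limma p under 0.05 was reached by 2 of 8 members, Gaa and Gal3st1, and by 14.8% of all genes. No member had groups without overlap, against 1.28% of all genes. This comparison shares its HFD mice with the first.

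Gaa ran from 24.4 to 26.8 FPKM in SZ-A mice (median 25.7), a narrow range with a coefficient of variation of 3.39%. All 6 SZ-A mice were above the HFD mean and 4 were above every HFD mouse, and the log2 fold change was 0.17 (95% interval 0.03 to 0.31, adjusted p = 0.248). The fragments behind it, before any scaling, had a median of 2222.5 in SZ-A and 2357 in HFD mice, the reverse order of the FPKM. When each mouse was rescaled to the same sum of FPKM (the common sum below), the log2 fold change was -0.0097.

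Gal3st1 ran from 0.645 to 2.99 FPKM in SZ-A mice (median 1.01). The mice SZ-A2 at 2.99 and SZ-A6 at 1.84 lay within the HFD range, the other 4 were below every HFD mouse, and none reached the HFD mean. The log2 fold change was -1.35 (95% interval -2.28 to -0.42, adjusted p = 0.174). It stayed between -1.60 and -0.94 over the 23 alternative settings that tested it, with adjusted p from 0.0556 to 0.330.

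The remaining 6 members had log2 fold changes between -0.20 and 0.25 in SZ-A against HFD mice. For the ER glucosidases these were 0.23 for Mogs (-0.03 to 0.50, adjusted p = 0.389), 0.21 for Prkcsh (-0.0079 to 0.43, adjusted p = 0.354) and 0.17 for Ganab (-0.0029 to 0.33, adjusted p = 0.347). SZ-A mice spanned 13.2 to 23.2 FPKM for Mogs (median 16.9), 18.7 to 29.5 for Prkcsh (median 23.4) and 41.8 to 49.1 for Ganab (median 46.7), each overlapping the HFD range. For the glycolipid pair the values were 0.25 for Gba2 (-0.07 to 0.57, adjusted p = 0.464) and 0.04 for Ugcg (-0.26 to 0.35, adjusted p = 0.914), with SZ-A ranges of 1.65 to 3.16 and 3.60 to 5.84 FPKM. Ganc, at 1.21 to 2.09 FPKM (median 1.86), had a log2 fold change of -0.20 (-0.45 to 0.04, adjusted p = 0.431). The mouse SZ-A5 was at an edge of its group for 6 members: it was the highest for Mogs and Prkcsh and the lowest for Ganc, Gba2, Ugcg and Gal3st1. SZ-A2 was the lowest for Gaa, Ganab, Mogs and Prkcsh and the highest for Gal3st1. Among HFD mice, HFD5 was at an edge for each of the 8 genes. It was the highest for Ganab, Mogs, Prkcsh, Gba2 and Ugcg and the lowest for Gaa, Ganc and Gal3st1. No mouse stood outside its group by Dixon's test for any of the 8 genes.

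SZ-A against NC mice asked how far treated livers still differed from normal ones. It shares its NC mice with the first comparison and its SZ-A mice with the second, so its calls are not independent of theirs. Gaa was again the member called: it fell by 0.34 on the log2 scale (SE 0.069, 95% interval -0.49 to -0.19, adjusted p = 0.00908), and all 6 SZ-A mice were below every NC mouse. Without NC6 the value was -0.38 (adjusted p = 0.00578), and the call held in all 24 alternative settings. The count of 1 of 8 members stood beside 9.6% of all genes called (5.31% higher and 4.3% lower), and an unadjusted p under 0.05 was likewise reached by 1 of 8 members and by 25.5% of all genes. Groups without overlap were found for 1 of 8 members and for 5.5% of all genes. The glucosidase II subunits had intervals around 0, with 0.01 for Ganab (-0.14 to 0.15) and -0.01 for Prkcsh (-0.22 to 0.21). Mogs was at -0.06 (-0.34 to 0.22), Ugcg at -0.12 (-0.40 to 0.15), Gba2 at 0.21 (-0.11 to 0.53), Ganc at 0.01 (-0.28 to 0.30) and Gal3st1 at -0.51 (-1.29 to 0.26), none called.

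The size of several of these values depended on how the mice were scaled to each other. The library size behind the deposited FPKM was 0.9325 to 1.02 times the fragments on genes of an NC mouse, 0.998 to 1.14 times those of an HFD mouse and 0.972 to 1.05 times those of an SZ-A mouse. Rescaling to a common sum moved the median of all genes in HFD against NC mice from -0.03 to 0.15, and scaling to the total of fragments moved it to 0.12. Gaa then fell by 0.32 (adjusted p = 0.0277) and by 0.35 (adjusted p = 0.0110), and stayed called. Ganc became called, at 0.40 (adjusted p = 0.0344) and 0.37 (adjusted p = 0.0348), while Ganab, Gba2 and Ugcg turned to 0.03, 0.14 and 0.02 under the common sum. Over all genes the split of higher and lower calls moved from 1092 and 970 to 2100 and 334 under the common sum and to 1970 and 406 under fragment totals. In SZ-A against HFD mice it moved from 8 and 7 to 10 and 206, and to 7 and 35. In SZ-A against NC mice it moved from 542 and 439 to 653 and 345 under fragment totals.

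**Figure D3:**
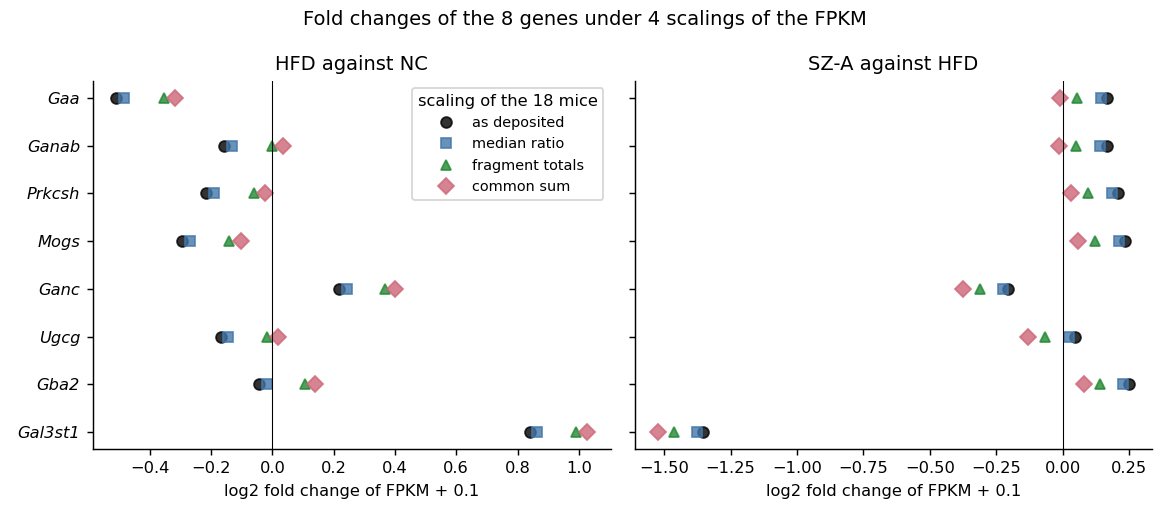
Log2 fold change of FPKM + 0.1 (x axis) of the 8 genes (y axis) with the FPKM as deposited, or rescaled by median ratio, by the total of fragments on genes, or to a common sum, for HFD against NC (left) and SZ-A against HFD mice (right). Gaa stays below 0 under all 4 scalings on the left, from -0.51 to -0.32, and moves from 0.17 to -0.0097 on the right. Gal3st1 lies between 0.84 and 1.03 on the left and between -1.52 and -1.35 on the right.

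The genes around the members were taken from 7 hand-written lists with 127 genes, 96 of which passed the filter. In HFD against NC mice 29 of the 96 were called (30.2%, against 20.2% of all genes), 22 higher and 7 lower, a split of 43 and 3 under the common sum. None of the 96 was called in SZ-A against HFD mice (0%, against 0.147%), and 14 were called in SZ-A against NC mice (14.6%, against 9.6%), 11 higher and 3 lower.

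Genes listed for glycosphingolipid breakdown, most of which work in the lysosome as Gaa does, held only higher calls in HFD against NC mice. Of 13 tested, 5 were called higher and none lower, against 10.7% and 9.49% of all genes. A positive log2 fold change was found for 11, and the median was 0.26. Hexa, which takes part in the breakdown of gangliosides, was at 24.8 to 41.4 FPKM in NC mice, at 37.0 to 55.8 in HFD mice and at 31.4 to 46.9 in SZ-A mice. It rose by 0.66 on the log2 scale in HFD against NC mice (SE 0.14, adjusted p = 0.00504). It was still called higher in SZ-A against NC mice, at 0.49 (adjusted p = 0.0363), where Neu1, a sialidase, was also called at 0.33. Further genes called in HFD against NC mice, named after their values were seen, were Asah1 (acid ceramidase, 0.28), Psap (the precursor of the saposins, 0.28) and Arsa. Arsa encodes arylsulfatase A, which removes the sulfate that Gal3st1 adds. It was at 14.5 to 18.2 FPKM in NC mice, 18.4 to 29.6 in HFD mice and 17.3 to 22.9 in SZ-A mice. The NC and HFD groups did not overlap, as for 10.5% of all genes, and the log2 fold change was 0.49 (limma adjusted p = 0.00777).

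**Figure D4:**
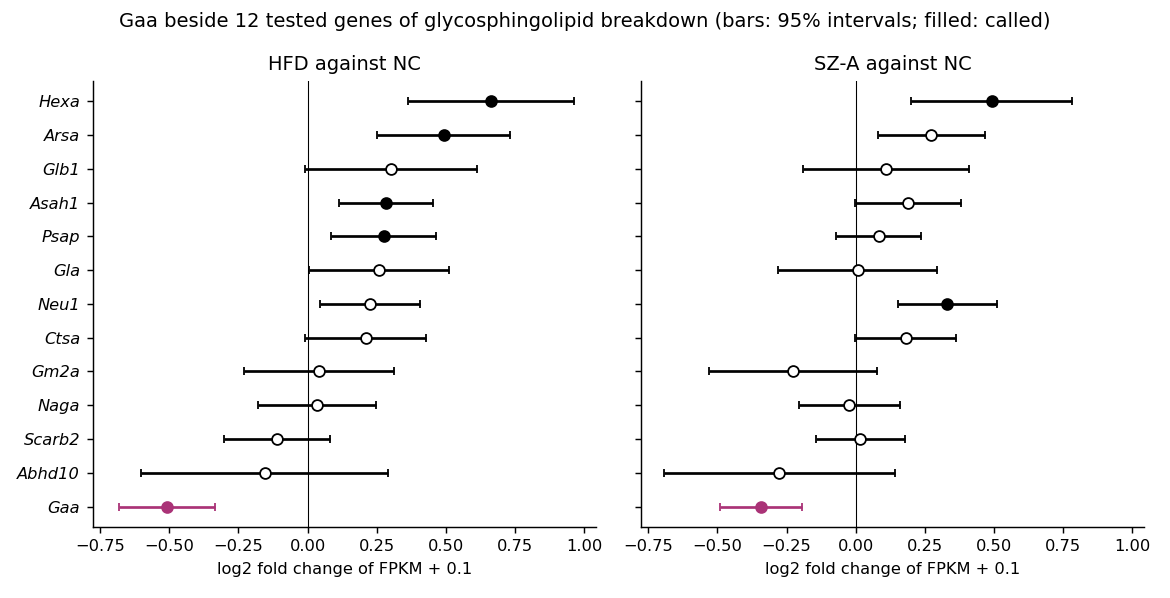
Log2 fold change of FPKM + 0.1 (x axis) with its limma 95% interval (bars) for Gaa and 12 of the 13 tested genes of glycosphingolipid breakdown (y axis), in HFD against NC (left) and SZ-A against NC mice (right); filled points are called. Gaa lies at -0.51 and -0.34, on the other side of 0 from Hexa (0.66 and 0.49).

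Genes of glycogen synthesis and breakdown, the cytosolic side of the pool that Gaa draws on, moved in both directions. In HFD against NC mice 4 of 18 were called higher and 3 lower (10.7% and 9.49% of all genes). Gbe1, the branching enzyme, was at 11.3 to 13.5 FPKM in NC and 20.9 to 26.7 in HFD mice and rose by 0.89 (adjusted p = 2.15e-05). Gys2, the glycogen synthase of liver, was at 93.0 to 141 FPKM in NC and 48.1 to 69.3 in HFD mice and fell by 0.90 (adjusted p = 0.000608). Ppp1r3g, which targets a phosphatase to glycogen, fell by 1.60 (SE 0.46, adjusted p = 0.0271). Its levels were near the floor, at 0.929 to 3.81 FPKM in NC and 0.0792 to 1.22 in HFD mice. The lowest HFD value was below the pseudocount of 0.1. In SZ-A against NC mice Gbe1 (0.72) and Pygl (0.46), the liver glycogen phosphorylase, were called higher and Gys2 (-0.52) lower.

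The ER steps on each side of the glucosidases held 2 calls of 16 tested genes and 4 of 20 in HFD against NC mice (20.2% of all genes), and 1 of 16 and 3 of 20 in SZ-A against NC mice (9.6% of all genes). Of 16 tested genes that build, glucosylate and transfer the sugar chain, 2 were called higher in HFD against NC mice, Tusc3 (0.44) and Ddost (0.44), both of the oligosaccharyltransferase, and Ddost (0.55, adjusted p = 0.0217) alone in SZ-A against NC mice. Of 20 tested genes of folding and mannose trimming, 3 were called higher in HFD against NC mice, among them Edem1 (0.51) and Man1b1 (0.37), which act on proteins bound for degradation. In that list Os9, a lectin of the same path, fell by 0.44 (adjusted p = 0.00126), a call lost under the common sum. In SZ-A against NC mice Edem1 (0.43) and Edem2 (0.39) were called higher and Manea (-0.36, adjusted p = 0.0156) lower. Manea encodes an endomannosidase that can remove glucose together with a mannose, a route around the glucosidases.

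On the synthesis side of the glycolipids, 2 of 8 tested genes were called lower in HFD against NC mice and none higher. Over all genes tested the shares were 9.49% lower and 10.7% higher. St3gal5, which makes the ganglioside GM3, ran from 106 to 260 FPKM in NC and from 34.3 to 121 in HFD mice and fell by 1.11 (adjusted p = 0.0285). B4galnt1, the next step towards complex gangliosides, fell by 0.34 (adjusted p = 0.0138), a call lost under the common sum and under fragment totals. Of 12 tested genes of ceramide supply, which feeds Ugcg, 6 were called higher and 1 lower (10.7% and 9.49% of all genes). Sptlc2, of the first step of sphingolipid synthesis, rose by 0.52 (adjusted p = 0.00194), Smpd1, the acid sphingomyelinase, rose by 0.37 (adjusted p = 0.00537), and Degs1, which desaturates dihydroceramide, fell by 0.36 (adjusted p = 0.00818), a call lost under both of those scalings. In SZ-A against NC mice Smpd1 (0.31) was called higher and Degs1 (-0.36) lower. Of 9 other tested glycosidases, 2 were called higher in HFD against NC mice (10.7% of all genes), the lysosomal enzymes Manba (0.45) and Naglu (0.40). Both were also called higher in SZ-A against NC mice (0.38 and 0.31), as were 5.31% of all genes.

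The genes most like Gaa across the 18 mice, once each group's mean was taken from log2(FPKM + 0.1), were Slc41a3 (Pearson r = 0.871), Ctsd (0.858) and Treh (0.809). Ctsd encodes cathepsin D, a lysosomal protease, Slc41a3 a magnesium transporter and Treh trehalase. The mice share libraries and scaling, and the 3 genes were ranked from all genes tested, so these values are a description.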

How the data were processed

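Liver poly-A RNA of 6 NC, 6 HFD and 6 SZ-A mice was sequenced as paired ends. The authors aligned reads to mm10/GRCm38, with HISAT2 2.0.5 and featureCounts 1.5.0-p3 named in the submitters' processing notes, and deposited FPKM per gene without a filter. The authors' DESeq2 test was not repeated. FPKM times gene length gave whole fragments for 100% of values above 0 (tolerance 0.05 fragment), and no pair of mice was a duplicate (lowest chi-square per degree of freedom 20.25).

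Each comparison was fitted on its own 2 groups with limma 3.58.1 in R 4.3.3 (lmFit, eBayes with trend) on log2(FPKM + 0.1), for 10216 genes with a mean of at least 1 FPKM, after a test on simulated data. Other steps ran in Python 3.11.15 (pandas 2.3.3, numpy 2.4.6, matplotlib 3.10.9). The alternatives were pseudocounts of 1 and 0.01, no filter, a mean of at least 5 FPKM, 3 other scalings (fragment totals added after seeing the data), all 18 mice in one fit, no trend, sample weights, voom on fragments, a replicate block, and each mouse left out.

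Named genes are the 8 members, the 2 genes called at the lowest adjusted p per list and direction, and the 3 genes most like Gaa; Asah1, Psap, Arsa, Capn3, Tmem87a, Creb3, Rgp1, Cd68, Mgam, Amy1, Sis and Lct fall outside this rule, and a few genes within it are left out here. Members and lists were chosen with earlier results of these data known.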

Additional observations from a re-analysis of the deposited data

How the results depend on the processing

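Gaa kept its direction and its call in HFD against NC and in SZ-A against NC mice under all 24 alternatives, and no member was called in SZ-A against HFD mice under any of the 24. The cause of the changes below was not tested, except that a higher filter tests fewer genes.

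In HFD against NC mice the 1 member called became 2 with a mean of at least 5 FPKM, under the common sum and under fragment totals, 3 with sample weights, and 1 to 2 with a mouse left out. The list genes called went from 29 to 18 without a filter, 46 under both of those scalings, 19 with the replicate block and 19 to 26 with a mouse left out (19 without NC4), and all genes called to 1271 with a mean of at least 5 FPKM. Ganab (0.034), Gba2 (0.14) and Ugcg (0.019) turned positive under the common sum, as did Gba2 under fragment totals (0.11), and Gba2 ran from -0.11 to 0.016 with a mouse left out.

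In SZ-A against HFD mice the genes called went from 15 to 0 without a filter, 26 with a mean of at least 5 FPKM, 216 under the common sum, 35 with all mice in one fit, 233 with sample weights, 0 with the replicate block, 31 with voom, 42 under fragment totals and 2 to 49 with a mouse left out (most without SZ-A2). List genes called went from 0 to 2 under the common sum and 3 with sample weights. Gaa (-0.0097), Ganab (-0.013) and Ugcg (-0.13) turned negative under the common sum, as did Ugcg under fragment totals (-0.066), and Ugcg ran from -0.043 to 0.14 with a mouse left out.

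In SZ-A against NC mice the genes called went from 981 to 564 without a filter, 1682 with sample weights and 601 to 1179 with a mouse left out (fewest without SZ-A3), and list genes from 14 to 6, 23 and 4 to 15 (fewest without SZ-A6). Prkcsh turned to 0.0071 under the common sum, 0.010 with sample weights and 0.036 under fragment totals, and Ganab to -0.017 with sample weights. With a mouse left out Prkcsh ran from -0.073 to 0.058, Ganab from -0.032 to 0.035, Ganc from -0.034 to 0.11 and Mogs from -0.14 to 0.018.

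The replicate block gave 1647, 0 and 922 genes and 1, 0 and 1 members called in the 3 comparisons. The numbers did not pair the mice: same-numbered mice had correlations of -0.117 to 0.098, -0.066 to 0.292 and -0.043 to 0.112, and 1, 2 and 6 of 12 mice were closest to their own number. A mean of at least 5 FPKM gives no value for Ganc, Gba2, Ugcg and Gal3st1. Depth limits Gal3st1 most, with 23 to 306 fragments per mouse.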

Other observations

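Of the glycosidases of the gut that iminosugars are known to inhibit, Sis (sucrase-isomaltase) and Lct (lactase) were listed at 0 in all 18 livers, whereas Mgam (maltase-glucoamylase) was at 9.48 ± 2.55 FPKM (SD, n = 6) in NC mice, 12.1 ± 0.580 (SD, n = 6) in HFD mice and 11.5 ± 2.63 (SD, n = 6) in SZ-A mice. The mean of Mgam was above those of Ugcg, Gba2, Ganc and Gal3st1 in each group, and its log2 fold change of 0.39 in HFD against NC mice was not called (limma adjusted p = 0.115), but was called under fragment totals at 0.55 (adjusted p = 0.0453), and was 0.58 under the common sum (adjusted p = 0.0519). Amy1, an amylase, was at 79.1 ± 7.46, 67.7 ± 15.7 and 81.8 ± 13.1 FPKM (SD, n = 6 each, in the same order), above each of the 8 members in mean level, and was not called in any comparison. These 4 genes were singled out after their values were seen.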
